A study of Mus musculus with 4 samples.

Results

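Myc, Mycn and the proteins that share their partner Max were read in lymphoid-primed multipotent progenitors (LMPPs), early bone marrow progenitors with strong lymphoid potential. The 9 genes were taken by symbol from the platform annotation: Myc, Mycn, Max, Mxd1, Mxd3, Mxd4, Mxi1, Mnt and Mlx. They were represented by 21 of the 45037 probe sets of the array, and 7 of the 9 had more than 1 probe set. All 9 genes were among the 11196 of 18193 genes tested, and 18 of the 21 probe sets reached the expression filter, a mean log2 value of 5.69, the median of all probe-set means.

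There were 4 expression arrays, 2 of wild-type mice and 2 of mice labelled Lyl1-null, all on the C57Bl/6 strain and 6-8 week old. The knock-out allele is given in the labels only by a citation, and neither the tissue in which it acts nor pooling of animals is described. Cells were sorted from bone marrow by flow cytometry as negative for lineage markers, positive for Kit and Sca-1, and high for Flt3. Lyl1 encodes a transcription factor of the basic helix-loop-helix class, and the design asks which transcripts differ in its absence. Whether the arrays of a group hold RNA from separate mice is not stated in the labels. The p-values therefore cover only the spread among these samples, which may be technical, and precision is limited by the number of arrays.

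The array labelled Lyl1-null replicate 2 went against its label and stood apart from the other 3. Its Lyl1 signal (probe set 1419120_at) was 10.32 on the log2 scale, 25.1% of the wild-type mean, where the array labelled Lyl1-null replicate 1 read 5.14 and the wild-type arrays 12.34 and 12.29. Its signal for Xist, an RNA made from the inactive X chromosome of female cells, was 14.26, where the others lay between 5.81 and 6.30. The Y-linked gene Eif2s3y read 8.44 in it and 10.07 to 10.15 in the others, so this array held signal of both. The labels do not give the sex of the mice. Set against each of the other arrays in turn, it had 518 to 859 tested genes at least 2-fold apart, where pairs of the other 3 had 42 to 128. The arrays labelled Lyl1-null are called null-labelled array 1 and null-labelled array 2 from here on, and each is shown on its own.

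The sorted population was checked against marker lists, none of which had a gene past the threshold with 4 arrays. Of 8 progenitor markers tested, 6 had negative and 2 positive differences between the null-labelled and wild-type groups, with a median of −0.43 on the log2 scale (−0.21 and −0.83 in null-labelled arrays 1 and 2). The sorting marker gene Flt3 read 11.92 and 12.12 in wild type and 11.80 and 11.26 in null-labelled arrays 1 and 2, and Cd34 read 12.76 and 12.87 against 12.59 and 11.92. The 2 positive ones were Il7r, with 9.37 and 9.62 against 10.25 and 10.03, and Satb1, at 0.18 and 0.54 above the wild-type mean. Among these 8 markers, 5 were below the wild-type mean in both null-labelled arrays and 2 above it in both. Granulocyte and monocyte markers had 5 positive and 3 negative differences among 8 tested, with a median of 0.79 (1.02 and 0.62). The neutrophil granule genes Ngp (2.06 and 1.93), S100a8 (1.77 and 1.52), Camp (a difference of 1.84) and Ltf (1.76 and 1.18) were above wild type in both null-labelled arrays, while the primary granule gene Mpo was below it in both (−0.65 and −1.36). Among the 8, 4 were above the wild-type mean in both null-labelled arrays and 2 below it in both. Over all 11196 genes tested, 3043 were above it in both and 3997 below it in both. Their summed linear signal, to which Mpo contributes most, was 6666 and 8232 in wild type and 7018 and 5583 in null-labelled arrays 1 and 2, and the defining marker Itgam lay under the filter. Among T-cell and NK-cell markers 3 of 7 on the array reached the filter, and Cd3d, Cd3g, Cd8b1 and Ncr1 did not. Among B-cell markers 3 of 5 did, with Cd79b brightest at 9.55 and 9.53 in wild type, and Ms4a1 and Pax5 did not. All 6 of these tested lymphocyte markers had positive differences, with medians of 0.33 and 0.28 for the lists. Cd79b was at 0.32 and −0.0019 in null-labelled arrays 1 and 2. The wild-type means of Cd22 (5.625) and Cd79a (5.59), and that of Ltf (5.02), lay under the filter. These genes reached it only through their null-labelled values, so the filter favoured their positive direction. The part of these markers in the results on the network was not tested.

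Proteins of this network carry a basic helix-loop-helix leucine zipper and bind DNA as pairs. Myc and Mycn pair with Max and activate genes of ribosome production, metabolism and cell division. Mxd1, Mxd3, Mxd4, Mxi1 and Mnt pair with the same Max and repress such genes through Sin3 and histone deacetylases. Mlx is a relative of Max that pairs with the glucose-responsive Mondo proteins and with some Mxd proteins. In blood formation Myc and Mycn act in stem and progenitor cells with overlapping functions, Mycn being best known from the most immature cells, and Mxd proteins are associated with exit from the cell cycle.

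The DNA word that Myc-Max and Mxd-Max pairs share is the E-box CACGTG, which reads the same on both strands. It was searched in RefSeq promoter windows of build GRCm38.p6, from 250 bases before to 50 bases after a gene's start. Windows were matched for 8 of the 9 genes, all but Myc, and came to 10 because Mxi1 has 3. CACGTG was found in 4 of the 10 member windows, against 7.15% of 32851 windows of all genes. The 4 matches are shown because these genes of the network carry the network's own recognition word near their start. Each stretch of 30 bases runs 5′ to 3′ along the gene, with the E-box in capitals.
Max (chr12:76962234-76962263, minus strand): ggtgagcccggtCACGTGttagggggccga
Mxd4 (chr5:34187912-34187941, minus strand): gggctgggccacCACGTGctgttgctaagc
Mnt (chr11:74830789-74830818, plus strand): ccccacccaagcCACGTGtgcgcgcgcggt
Mlx (chr11:101087238-101087267, plus strand): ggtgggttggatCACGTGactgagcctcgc
Counted from the annotated start, the E-box of Max spans it, from base −3 to base 3. That of Mlx lies 40 to 35 bases upstream, that of Mnt 123 to 118 and that of Mxd4 219 to 214.

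A second word, CAGATG with its reverse complement CATCTG, was searched because pairs of E proteins with Tal1, the closest relative of Lyl1, are known to prefer it. It was found in 3 of the 10 member windows, against 17.2% of all windows, and no match overlapped a CACGTG match. The stretches are given with the word in capitals, since Mycn had the smallest p of the 9 genes.
Mycn (chr12:12941810-12941839, minus strand): gccagtgacagtCATCTGtctggacgcgct
Mxd4 (chr5:34187842-34187871, minus strand): agccaagcttcgCATCTGtcaacattctca
Mxi1 (chr19:53310413-53310442, plus strand): attttgaccggtCAGATGgcatcgggctcg
In Mycn the word covers bases 10 to 15 after the start. In Mxd4 and in this Mxi1 window it lies 149 to 144 and 81 to 76 bases upstream. The windows of Mxd1 and Mxd3 held neither word. A match of letters describes the sequence and does not show that a factor binds there.

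None of the 9 genes passed the test between the genotypes. In limma's fit over all genes with the 4 arrays, 0 of 9 had an adjusted p under 0.05, where 0.00893% of all genes tested did. An unadjusted p under 0.05 was found for 1 of the 9, Mycn, against 6.84% of all genes. Differences are null-labelled minus wild type on the log2 scale throughout. Over the 9 genes 5 differences were positive and 4 negative, with a median of 0.0084, and over all genes tested the median was −0.047. Positive and negative differences made up 43.0% and 56.9% of all genes. The groups did not overlap for 3 of the 9, against 42.7% of all genes: for 1 gene with a higher null-labelled group, Mycn, and for 2 with a lower one, Mxd1 and Mxi1. Over all genes, 18.7% were separated upward and 24.0% downward, so these counts are near the background. With 2 arrays against 2, a two-sided exact permutation test of a single gene cannot go below 0.333. In bulk RNA, fewer cells of a type and less RNA per cell cannot be told apart.

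**Figure D1:**
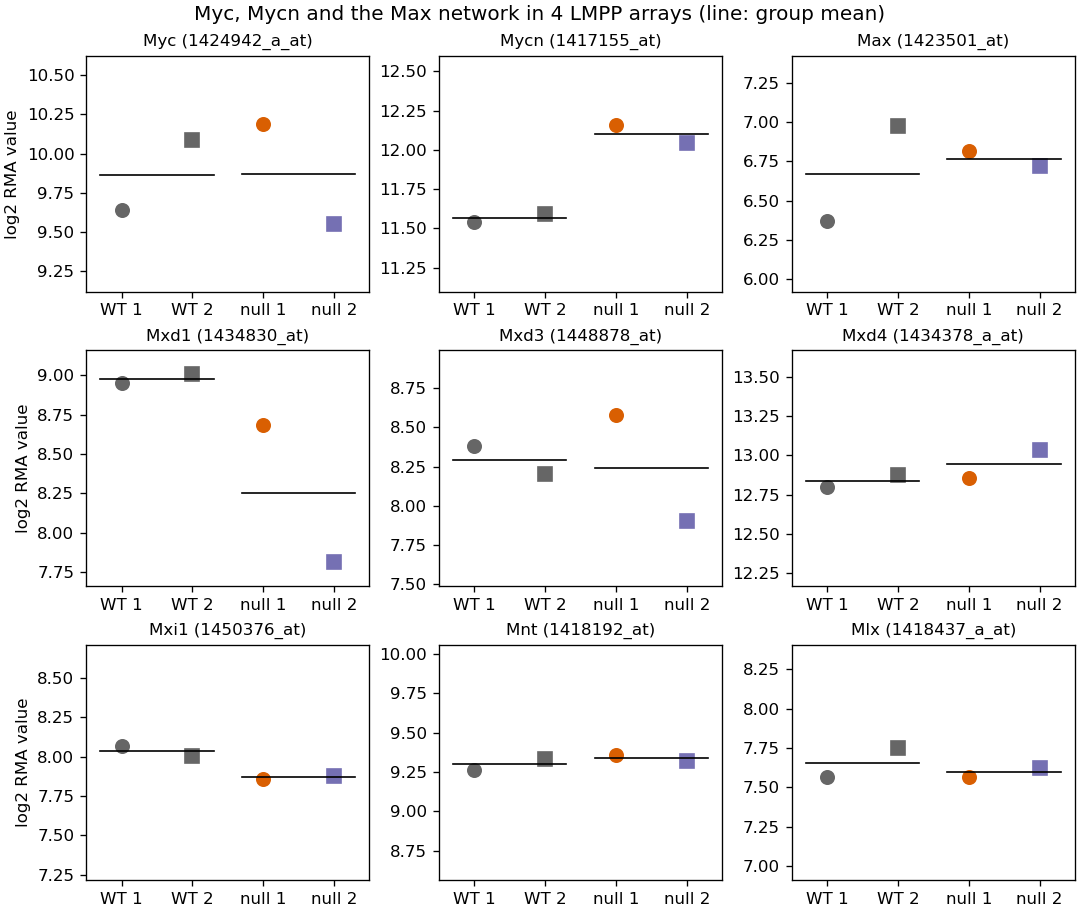
Log2 RMA values of the 9 network genes in each array, with 1 panel per gene, the probe set in the title, a line at each group mean and axes of equal span. The values of Mycn in the null-labelled arrays, 12.16 and 12.04, lie above both wild-type values, and Mxd1 in null-labelled array 2, at 7.81, is the lowest of its 4.

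Mycn, the activator best known from immature progenitors, had the largest positive difference of the 9 genes. Its brightest probe set (1417155_at) read 11.54 and 11.59 in wild type, 12.16 in null-labelled array 1 and 12.04 in null-labelled array 2. Both null-labelled arrays lay above both wild-type arrays, and the gap between the groups was several times the gap within either. The difference was 0.53 (SE 0.16, 95% confidence interval 0.14 to 0.93, adjusted p = 0.644), or 1.45-fold, and did not pass. It was 0.59 in null-labelled array 1, whose Lyl1 signal lay under the filter, and 0.48 in null-labelled array 2. The mean of its 3 probe sets differed less, by 0.30 (adjusted p = 0.640).

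The other Mycn probe sets were dim. Probe set 1425923_at read 6.11 and 6.20 in wild type and 6.21 and 6.27 in null-labelled arrays 1 and 2, a difference of 0.089 (SE 0.15). Probe set 1425922_a_at read 5.57 and 5.71 in wild type and 5.79 and 6.07 in the null-labelled arrays, a difference of 0.29 (SE 0.17). All 3 Mycn probe sets were thus higher in both null-labelled arrays than in either wild-type array. Over all probe sets, 27.3% were separated upward in this way, and probe sets of 1 gene are not independent.

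Myc itself had 1 probe set (1424942_a_at) and no difference that stood out from its spread. It read 9.64 and 10.08 in wild type, 10.19 in null-labelled array 1 and 9.55 in null-labelled array 2. The null-labelled arrays held both the highest and the lowest value, so the groups overlapped fully. The difference was 0.0084 (SE 0.28, 95% confidence interval −0.69 to 0.70, adjusted p = 0.994), an interval that includes changes of 1.5-fold either way. Against the wild-type mean, null-labelled array 1 was at 0.33 and null-labelled array 2 at −0.31. Its direction turned with median centring (−0.067), without wild-type replicate 1 (−0.21) and without null-labelled array 1 (−0.31).

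Max, the partner of every Myc and Mxd protein, read 6.37 and 6.97 in wild type and 6.81 and 6.72 in null-labelled arrays 1 and 2 (probe set 1423501_at). The null-labelled values lay between the wild-type values, which were 0.60 apart. The difference was 0.097 (SE 0.24, adjusted p = 0.888), and it was −0.20 without wild-type replicate 1.

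**Figure D2:**
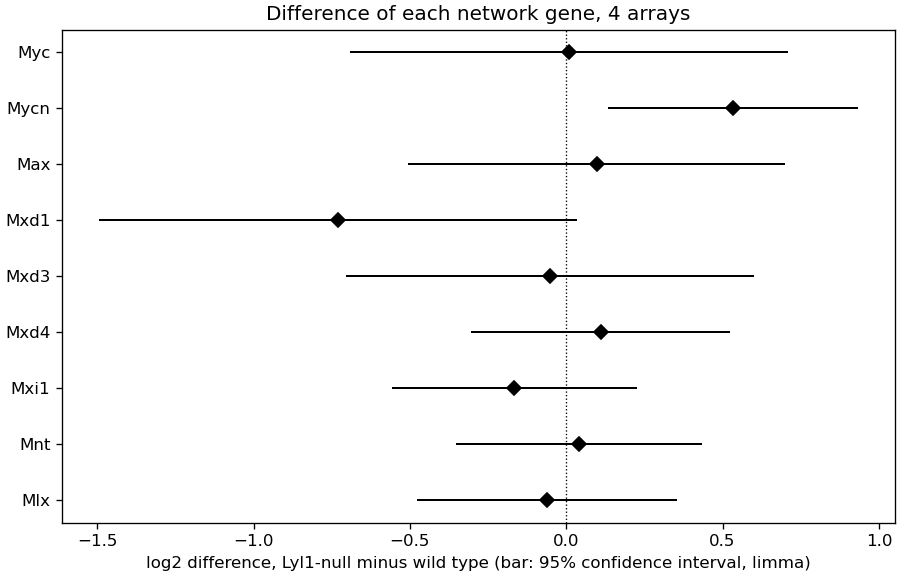
Difference of each network gene between the null-labelled and wild-type arrays on the log2 scale, with the 95% confidence interval from limma over the 4 arrays. The interval of Mycn, from 0.14 to 0.93, is the only 1 of the 9 that does not include 0, before adjustment over all genes.

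Mxd1, a repressor induced as blood cells differentiate, had the largest negative difference, and most of it came from 1 array. Its brightest probe set (1434830_at) read 8.95 and 9.01 in wild type, 8.69 in null-labelled array 1 and 7.81 in null-labelled array 2. Both null-labelled values lay below wild type, and they were 0.87 apart from each other. The difference was −0.73 (SE 0.30, 95% confidence interval −1.49 to 0.031, adjusted p = 0.644) over the 4 arrays. It was −0.29 without null-labelled array 2 (adjusted p = 0.825).

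Without null-labelled array 1, Mxd1 was the 1 network gene that passed, with a difference of −1.17 (SE 0.16, adjusted p = 0.0124). That fit called 14.8% of all genes, 1652 of 11196 (3.94% higher and 10.8% lower), with an array that goes against its label as the only null-labelled one. The call needed the expression filter. With all 18193 genes and no filter, the same 3 arrays gave 5 calls, 0.0275% of genes, and Mxd1 had an adjusted p of 0.0631. In the fit of all 45037 probe sets without that array, 1 probe set of any gene passed, 0.00222%, and the adjusted p of 1434830_at was 0.0944.

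The dimmer Mxd1 probe sets did not follow the brightest. Probe set 1455104_at read 6.20 and 6.21 in wild type and 6.29 and 6.14 in null-labelled arrays 1 and 2. Probe set 1422002_at, under the filter, read 5.51 and 5.42 in wild type and 5.53 and 5.92 in the null-labelled arrays. Its difference of 0.26 (SE 0.19) had the opposite sign to that of 1434830_at. With the mean of the 3 probe sets, the Mxd1 difference was −0.15 (adjusted p = 0.713).

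Mxd3, the Mxd protein known from cells in S phase, differed between the null-labelled arrays rather than between the genotypes. Its brightest probe set (1448878_at) read 8.38 and 8.20 in wild type, 8.58 in null-labelled array 1 and 7.90 in null-labelled array 2. The wild-type values lay between the null-labelled values. The difference was −0.053 (SE 0.26, adjusted p = 0.951), and it was 0.28 without null-labelled array 2, 0.038 without wild-type replicate 1 and 0.10 with quantile normalization. The other 2 Mxd3 probe sets, also above the filter, kept that order of the null-labelled arrays, with 0.17 and −0.35 against the wild-type mean for 1422970_at and 0.059 and −0.57 for 1438847_at. Beside this, 11 markers of cycling cells had a median of −0.016 in null-labelled array 1 and −0.21 in null-labelled array 2, with 4 positive and 7 negative differences and 0 called. Their part in the Mxd3 values was not tested.

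Mxd4, a repressor found in resting and differentiating cells, gave opposite readings in its 2 bright probe sets. Probe set 1434378_a_at read 12.80 and 12.88 in wild type and 12.86 and 13.04 in null-labelled arrays 1 and 2, a difference of 0.11 (SE 0.17, adjusted p = 0.809). Probe set 1434379_at read 9.18 and 9.30 in wild type, 9.12 in null-labelled array 1 and 8.10 in null-labelled array 2. In that array the first stood 0.20 above and the other 1.14 below the wild-type mean, while in null-labelled array 1 they were at 0.019 and −0.11. The difference of 1434379_at was −0.63 (SE 0.34, adjusted p = 0.582) over 4 arrays. The 2 remaining Mxd4 probe sets, 1 of them under the filter, had differences of 0.014 and 0.14, and the mean of all 4 gave −0.091.

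Mxi1, a repressor of the same group, had its brightest probe set (1450376_at) at 8.06 and 8.01 in wild type and at 7.86 and 7.88 in null-labelled arrays 1 and 2. Both null-labelled arrays were lower, by 0.18 and 0.16. The difference was −0.17 (SE 0.16, 95% confidence interval −0.55 to 0.22, adjusted p = 0.709), about as large as its error. A dimmer probe set (1425732_a_at) gave 0.042 (SE 0.17), with −0.090 and 0.17 in the null-labelled arrays.

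Mnt, the broadly present antagonist of Myc, varied least between arrays in its bright probe set (1418192_at), with 9.26 and 9.34 in wild type and 9.36 and 9.32 in null-labelled arrays 1 and 2. All 4 values lay within 0.093 of each other. The difference was 0.040 (SE 0.16, 95% confidence interval −0.35 to 0.43, adjusted p = 0.935), and −0.035 with median centring. The dimmer Mnt probe set (1418193_at) read 6.01 and 5.86 in wild type and 6.11 and 6.50 in the null-labelled arrays, a difference of 0.37 (SE 0.19, adjusted p = 0.581).

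Mlx, the Max relative that serves Mondo proteins, read 7.56 and 7.75 in wild type and 7.57 and 7.62 in null-labelled arrays 1 and 2 (probe set 1418437_a_at). The null-labelled values lay within the wild-type range. The difference was −0.061 (SE 0.17, adjusted p = 0.899), and it was 0.033 without wild-type replicate 2 and 0.086 with quantile normalization. A probe set under the filter (1425930_a_at) read 5.28 and 5.19 in wild type, 5.53 in null-labelled array 1 and 4.84 in null-labelled array 2.

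Across the 21 probe sets, 0 passed in limma's fit of all probe sets, where 0.00444% of the table did. An unadjusted p under 0.05 was reached by 1, Mycn 1417155_at, against 7.88% of the table. The groups were separated upward for 6 probe sets and downward for 3, against 27.3% and 17.0% of all probe sets and 44.3% in either direction. In null-labelled array 2 the network's probe sets lay from −1.17 to 0.57 against the wild-type mean, and in null-labelled array 1 from −0.29 to 0.59. Of the 21, 9 were above the wild-type mean in both null-labelled arrays and 4 were below it in both. The remaining 8 moved in opposite directions in the null-labelled arrays. Over all 45037 probe sets, 17767 were above the wild-type mean in both null-labelled arrays and 11806 below it in both, so the counts of the network are near the background.

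**Figure D3:**
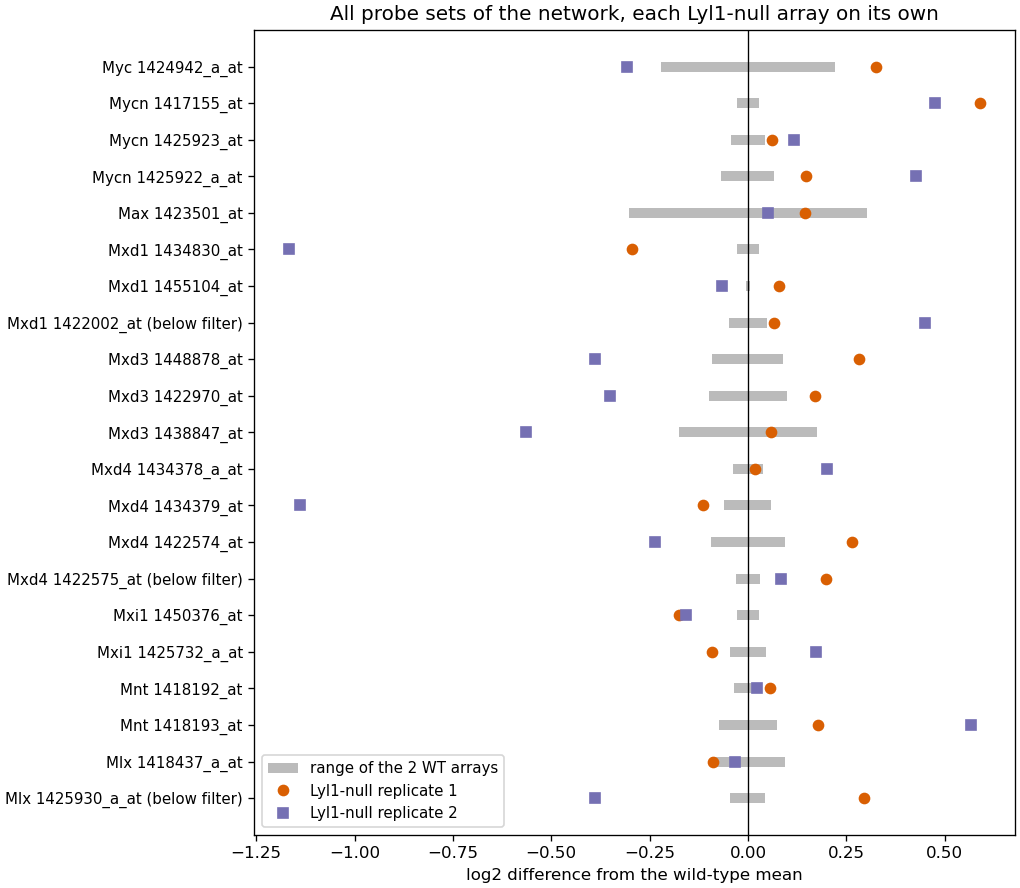
Difference of each null-labelled array from the wild-type mean, on the log2 scale, for all 21 probe sets of the network, with circles for null-labelled array 1, squares for null-labelled array 2 and a grey bar for the range of the wild-type arrays. The widest gaps between circle and square belong to Mxd4 1434379_at (1.02) and Mxd1 1434830_at (0.87), and the pair for Mycn 1417155_at lies close together on the right.

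Differences between the genotypes are set beside the CACGTG E-box for the 8 genes with a window. Max, Mxd4, Mnt and Mlx, whose windows hold it, had differences of 0.097, 0.11, 0.040 and −0.061. Mycn, Mxd1, Mxd3 and Mxi1, whose windows do not, had 0.53, −0.73, −0.053 and −0.17. The 2 sets overlapped in size, and these 8 values are a description, with no test of an association.

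Some genes followed the same pattern over the 4 arrays as Myc and Mycn. The genes nearest to Myc, by Euclidean distance of log2 values centred on each gene's own mean, were Srm (0.0321), Eef1aknmt (0.0408) and Zfp324 (0.0443), where the median gene lay at 0.620. Srm, which encodes spermidine synthase and is 1 of the Myc-induced genes on the metabolism list, read 11.01 and 11.42 in wild type and 11.57 and 10.90 in null-labelled arrays 1 and 2. Like Myc, it was highest in null-labelled array 1 and lowest in null-labelled array 2. Nearest to Mycn were Col19a1 (0.0268), Mettl4 (0.0572) and the integrin gene Itgax (0.0617), where the median gene lay at 0.673. Itgax read 6.57 and 6.56 in wild type and 7.17 and 7.09 in null-labelled arrays 1 and 2. They were picked from 11196 genes over only 4 arrays, and these names carry no test.

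The other genes of the pathway were read from lists of fixed membership, each given with limma's fit over all genes. The network member Max is also on the list of upstream regulators. An unadjusted p under 0.05 was reached by 3 of 10 Myc-repressed genes, 1 of 7 Mondo target genes, 5 of 14 upstream regulators and 0 genes of the remaining pathway lists, against 6.84% of all genes. The lists were chosen with earlier results of these data known, so these counts do not test a list against that share. Counts and examples from the fit without null-labelled array 1, which called 14.8% of all genes, are given where it changed a call. All of those calls were lost when the filter was dropped as well.

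Other genes listed with the extended network had negative differences. All 4 tested, Mga, Mlxip, Mycl and Bmyc, had negative differences, with a median of −0.34 (−0.28 and −0.62 in null-labelled arrays 1 and 2), and 0 passed. Of the 4, 2 were below the wild-type mean in both null-labelled arrays and 0 above it in both. Negative differences made up 56.9% of all genes tested. Mga, a large Max-binding repressor of germ-cell genes, read 7.81 and 8.31 in wild type, 7.67 in null-labelled array 1 and 6.65 in null-labelled array 2. Its difference was −0.89 (SE 0.37, adjusted p = 0.644), and −1.41 without null-labelled array 1 (adjusted p = 0.0179). Its second probe set above the filter gave −0.35. Mlxip, which encodes the Mondo protein MondoA, had −0.52 (SE 0.27, adjusted p = 0.644), and −0.86 without null-labelled array 1 (adjusted p = 0.0327).

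Cofactors of Myc had negative differences for 14 of 14 tested genes, with a median of −0.25, and 0 passed. Negative differences made up 56.9% of all genes tested. Only 6 of the 14 were below the wild-type mean in both null-labelled arrays, and 0 above it in both. The median was −0.045 in null-labelled array 1 and −0.44 in null-labelled array 2. Cdk9, the kinase that releases paused RNA polymerase, read 10.52 and 10.81 in wild type, 10.58 in null-labelled array 1 and 8.66 in null-labelled array 2. Its difference was −1.04 (SE 0.60, adjusted p = 0.644) over 4 arrays and −2.00 without null-labelled array 1 (adjusted p = 0.00536). A dimmer Cdk9 probe set gave −0.58. Zbtb17, which encodes the Myc partner Miz1, had −0.42 (SE 0.25, adjusted p = 0.644), with −0.74 without null-labelled array 1 (adjusted p = 0.0338). The third call of that fit was the helicase gene Ruvbl2 (−1.22, adjusted p = 0.0243). A dimmer Zbtb17 probe set above the filter went the opposite way (0.44). The acetyltransferase gene Kat5 had −0.36 (SE 0.20, adjusted p = 0.644), with −0.33 and −0.39 in null-labelled arrays 1 and 2. A second Kat5 probe set gave −0.25 and −0.92.

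Genes on the list of corepressors of the Mxd proteins and Mnt showed 3 positive and 5 negative differences among 8 tested. The median was −0.082, with 0 calls. The smallest p-values were those of Smc3 (−0.27, SE 0.16, adjusted p = 0.644) and the deacetylase gene Hdac2 (−0.22, SE 0.16, adjusted p = 0.656). Smc3 is on this list although it is a cohesin gene. Without null-labelled array 1, 1 of the 8 passed, the Sin3 complex gene Sap30 (−0.75, adjusted p = 0.0336). Among 14 genes that control how long Myc proteins last, 5 differences were positive and 9 negative, with a median of −0.092 and 0 calls. Fbxw7, the ubiquitin ligase subunit that marks Myc and Mycn for breakdown, had 0.081 (SE 0.21, adjusted p = 0.895), with −0.15 and 0.31 in null-labelled arrays 1 and 2. The difference was −0.12 for the mean of its probe sets. Pim1, a kinase that stabilises Myc, had 0.37 (SE 0.19, adjusted p = 0.644) and the ligase gene Stub1 −0.54 (SE 0.33, adjusted p = 0.644). Without null-labelled array 1, 2 of the 14 passed, Stub1 (−1.03, adjusted p = 0.0166) and the phosphatase subunit gene Ppp2r5a (−0.74, adjusted p = 0.0349).

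Genes that Myc is known to induce had differences in both directions. In the ribosome biogenesis and nucleolus list 13 of 26 tested differences were positive and 13 negative, with a median of 0.00030, and 0 passed. The median was 0.079 in null-labelled array 1 and −0.16 in null-labelled array 2. Ncl, which encodes nucleolin, read 12.22 and 12.62 in wild type, 12.21 in null-labelled array 1 and 11.12 in null-labelled array 2, a difference of −0.76 (SE 0.38, adjusted p = 0.644). Other Ncl probe sets above the filter ranged from −0.53 to 0.34. Npm1, nucleophosmin, had −0.19 (SE 0.19, adjusted p = 0.717), the methyltransferase gene Fbl −0.47 (SE 0.21, adjusted p = 0.644) and the helicase gene Ddx18 0.39 (SE 0.18, adjusted p = 0.644). Other Ddx18 probe sets gave 0.0050 and −0.11. Without null-labelled array 1, 6 of the 26 passed, all lower. They were Utp20 (−1.18, adjusted p = 0.0119), Ncl (−1.30, adjusted p = 0.0169), Fbl (−0.69, adjusted p = 0.0405), Nop58, Ppan and Imp4.

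In the metabolism and translation list 14 of 24 differences were positive and 10 negative, with a median of 0.024 and 0 calls. Medians were 0.11 and −0.077 in null-labelled arrays 1 and 2. Odc1, the ornithine decarboxylase gene and a classic Myc target, had a difference of 0.011 (SE 0.18, adjusted p = 0.988), with 12.33 and 12.14 in wild type and 12.36 and 12.13 in null-labelled arrays 1 and 2. It was −0.064 with median centring, −0.081 without wild-type replicate 2 and −0.10 without null-labelled array 1. Other Odc1 probe sets above the filter gave −0.16 (1437711_x_at) and 0.39 (1427364_a_at). The latter was at 0.27 and 0.51 in null-labelled arrays 1 and 2, with groups that did not overlap. Cad, which starts pyrimidine synthesis, was at 0.24 in null-labelled array 1 and −0.82 in null-labelled array 2, and without null-labelled array 1 it passed (adjusted p = 0.0282). The lactate dehydrogenase gene Ldha had −0.16 (SE 0.20, adjusted p = 0.764), and 0.050 without null-labelled array 2. The smallest p-values of this list were those of the mitochondrial factor gene Tfam (−0.33, SE 0.16) and the one-carbon enzyme gene Shmt1 (0.31, SE 0.16), both at an adjusted p of 0.644. The other 3 Shmt1 probe sets gave −0.20, 0.048 and −0.062, and the mean of all its probe sets gave 0.025.

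Cell cycle genes on the Myc-induced list had 7 positive and 3 negative differences among 10, with a median of 0.075 and 0 calls. Cdk4 had −0.067 (SE 0.18, adjusted p = 0.899), and 0.079 without null-labelled array 2. The smallest p-values belonged to Cks2 (0.30, SE 0.20) and the cyclin gene Ccne1 (0.34, SE 0.25), at adjusted p-values of 0.654 and 0.662. A second Ccne1 probe set went the opposite way (−0.39). Without null-labelled array 1, 2 of the 10 passed, both higher, the transcription factor gene E2f1 (1.17, adjusted p = 0.0370) and the phosphatase gene Cdc25a (0.72, adjusted p = 0.0448).

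Among 10 genes that Myc is known to repress, 2 differences were positive and 8 negative, with a median of −0.12, and 0 passed. The p21 gene Cdkn1a read 9.51 and 9.28 in wild type, 10.96 in null-labelled array 1 and 11.80 in null-labelled array 2. Its difference of 1.98 (SE 0.30, adjusted p = 0.297) was 1 of the 2 positive ones, beside Ndrg1 (0.075). It passed without null-labelled array 2 (1.56, adjusted p = 0.0456) and without null-labelled array 1 (2.40, adjusted p = 0.00433), and its second probe set was at 1.58 and −0.11 in null-labelled arrays 1 and 2. Without the filter as well, its adjusted p was 0.353 without null-labelled array 2 and 0.0521 without null-labelled array 1. The anti-proliferative gene Btg1 had −0.52 (SE 0.16, adjusted p = 0.644), with −0.45 and −0.59 in the null-labelled arrays. Its other probe sets above the filter gave −0.62 and −0.96.

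**Figure D4:**
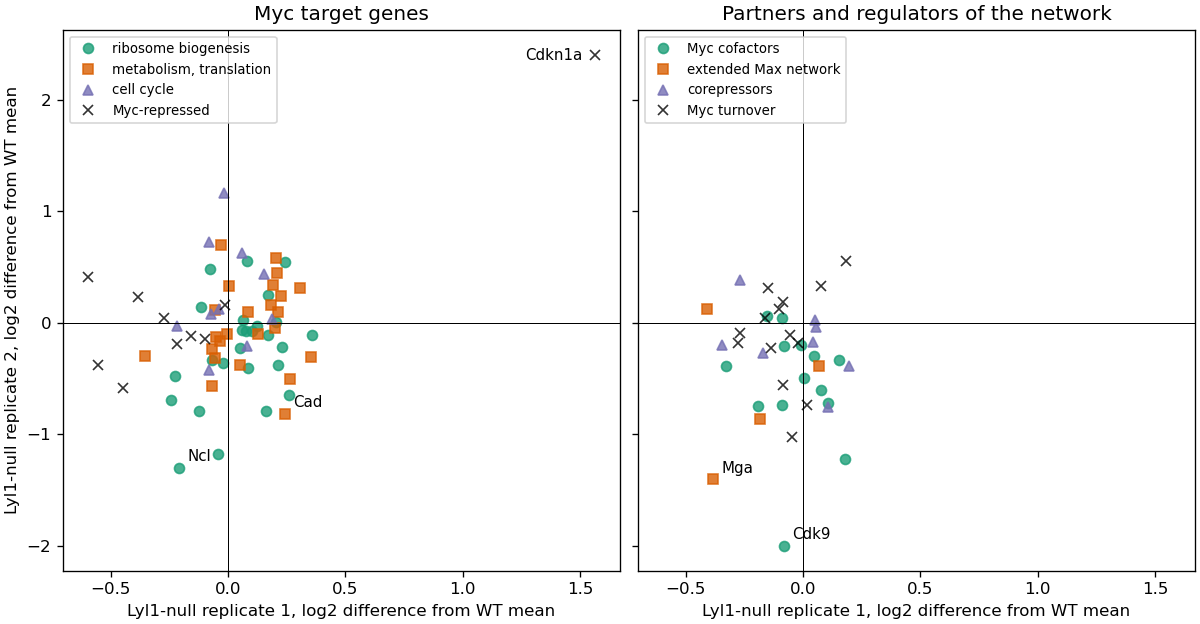
Log2 difference from the wild-type mean in null-labelled array 1 (horizontal axis) and null-labelled array 2 (vertical axis) for tested genes of 8 lists, with Myc target genes on the left and partners and regulators of the network on the right. Values spread more along the vertical axis than along the horizontal one, with Cdk9 at −2.00, Mga at −1.41 and Ncl at −1.30 in null-labelled array 2, and Cdkn1a is high in both arrays.

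Genes controlled by Mondo proteins and Mlx had 2 positive and 5 negative differences among 7, with a median of −0.23 and 0 calls. The median was 0.041 in null-labelled array 1 and −0.37 in null-labelled array 2. Txnip, the glucose-sensing arrestin relative, read 13.82 and 13.45 in wild type and 13.21 and 13.24 in null-labelled arrays 1 and 2, a difference of −0.41 (SE 0.19, adjusted p = 0.644). The groups did not overlap in this probe set, and a dimmer Txnip probe set gave 0.16. Its relative Arrdc4 had −0.77 (SE 0.30, adjusted p = 0.644), with −1.18 in null-labelled array 1 and −0.36 in null-labelled array 2, and a second probe set at −0.49. The transcription factor gene Klf10 had −0.39 (SE 0.18, adjusted p = 0.644).

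Genes listed as upstream regulators of Myc in blood progenitors had 4 positive and 10 negative differences among 14, and 0 passed. The median was −0.35 (−0.21 and −0.54 in null-labelled arrays 1 and 2). The network member Max, the partner of Myc, was also counted on this list, among the positive differences (0.097). Meis1, a homeobox factor of stem and progenitor cells, had −0.75 (SE 0.16, adjusted p = 0.574), with −0.74 and −0.76 in the null-labelled arrays. Its other probe sets above the filter gave −0.28 and −0.038. Kit, whose product was used for sorting and binds stem cell factor, had −0.90 (SE 0.24, adjusted p = 0.644), with −0.61 and −1.20. A Kit probe set under the filter gave 0.0027. Without null-labelled array 1, 7 of the 14 passed, 6 lower and 1 higher, with Meis1 and Kit at adjusted p-values of 0.0331 and 0.0133.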

How the data were processed

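The authors deposited log2 values per probe set. According to the submitters' processing notes they come from RMA, a method that normally subtracts background, makes the arrays' distributions equal and combines probes. The deposited distributions were not equal, with medians of 5.65 to 5.76 and SDs of 2.34 to 2.48, null-labelled array 2 lying apart. Quantile normalization moved the median difference over all genes from −0.047 to 0.039. No version of RMA is named in the labels. Values were used as deposited, and no control probe sets or detection calls were used.

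Probe sets with 1 gene symbol (34945) were kept for genes, and each gene was read from its probe set with the highest mean. Genes whose mean reached 5.69 were tested with limma 3.58.1 under R 4.3.3 (lmFit, eBayes, two-sided, Benjamini-Hochberg over all 11196 genes, threshold 0.05). All adjusted p-values come from limma. A second fit took all 45037 probe sets without a filter and gave the values of probe sets not read for a gene. A fit without 1 array assumes that the lone array varies like the other group.

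The members and gene lists were chosen with earlier results of these data known. Named were all members, Lyl1, from each list at most 4 called genes or, with no call, the 2 of smallest p-value, 12 fixed pathway genes (Odc1, Ncl, Npm1, Cad, Ldha, Cdk4, Cdkn1a, Txnip, Fbxw7, Zbtb17, Mga and Mlxip) and the 3 nearest neighbours of Myc and of Mycn without RIKEN clones and predicted genes. Marker genes, Ndrg1, Ruvbl2, Sap30, Ppp2r5a, Utp20, Nop58, Ppan, Imp4, E2f1 and Cdc25a were named after their values were seen.

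Alternatives were the filter, the mean of probe sets, quantile normalization, median centring, other priors, array weights, a replicate block and each array left out. A crossed block and the fits that leave out a null-labelled array and the filter together were added after seeing the data. Tested on simulated data with 200 changed genes of 11196 in 20 runs, the main test recovered 14.5% of 2-fold, 89.9% of 4-fold, 96.4% of 8-fold and 98.8% of 16-fold changes. In limma's fit of the 4 arrays, Lyl1 itself (−4.58, SE 1.57) had an adjusted p of 0.644 and Cdkn1a (1.98) one of 0.297. The simulated rates therefore need not hold for these data.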

Additional observations from a re-analysis of the deposited data

How the results depend on the processing

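The count of network genes past the threshold was 0 in limma's fit of 4 arrays and 0 under every alternative run except without null-labelled array 1, where it was 1 (Mxd1), so leaving out single arrays gave 0 to 1. The count of network probe sets was 0 under every alternative run. Over all genes, the count of 1 became 4 without the filter, 0 with the mean of probe sets, 2 with quantile normalization, 2 with median centring, 4 with a trended prior, 5 with array weights and 6 at a threshold of 0.10. Leaving out single arrays gave 1 to 1652 genes. Without the filter, leaving out null-labelled array 1 gave 5 and leaving out null-labelled array 2 gave 2, so the 1652 calls depended on the filter. The median over the network, 0.0084, became 0.11 with quantile normalization and −0.067 with median centring, and ranged from −0.14 to 0.076 with single arrays left out. The replicate number as a block gave 3 genes and changed no call on the network. The differences between replicates 1 and 2 of the genotypes correlated at −0.407 across genes. This value includes null-labelled array 2, which stood apart, so it cannot show whether the replicate numbers pair the arrays. A crossed block gave 1 gene.

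Mycn, Mxd1 and Mxi1 kept their direction under all 17 alternatives, most of which could not have turned it. Their groups did not overlap, so leaving out or weighting arrays cannot change the sign. Filters, priors and blocks leave the difference itself unchanged. Only the mean of probe sets, quantile normalization and median centring could have turned it. Directions that turned under scaling or probe-set choice, all of uncalled values, were those of Myc (−0.067) and Mnt (−0.035) and Odc1 (−0.064) with median centring, Mxd3 (0.10) and Mlx (0.086) with quantile normalization, and Mxd4 (−0.091), Fbxw7 (−0.12), Zbtb17 (0.013) and Ccne1 (−0.026) with the mean of probe sets. With single arrays left out, ranges that crossed 0 were −0.31 to 0.33 for Myc, −0.20 to 0.40 for Max, −0.39 to 0.28 for Mxd3, −0.16 to 0.033 for Mlx, −0.10 to 0.13 for Odc1, −0.82 to 0.24 for Cad, −0.38 to 0.050 for Ldha, −0.21 to 0.079 for Cdk4 and −0.15 to 0.31 for Fbxw7. Without the filter too, the values without null-labelled array 1 were −0.31 for Myc and −0.10 for Odc1, and those without null-labelled array 2 were 0.28 for Mxd3, 0.24 for Cad, 0.050 for Ldha, 0.079 for Cdk4 and −0.15 for Fbxw7. The filter does not enter a gene's own difference, so these values equal those with the filter and are no further check. The cause of the turned directions was not tested. On simulated data the test found 14.5% of 2-fold changes, so smaller changes than those were mostly out of reach with 2 arrays a group. Larger changes could also be missed, since Lyl1 itself (−4.58) did not pass in limma's fit of the 4 arrays (adjusted p = 0.644).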
